A study of Homo sapiens with 18 samples.

Results

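The genes described here code for the HSP90 machinery that holds steroid hormone receptors, and they were taken as the probe sets that the platform annotation gives to 9 genes: FKBP5, FKBP4, HSP90AA1, HSP90AB1, PTGES3, STIP1, ST13, HSPA8 and AHSA1. Of the 9 genes, 7 had at least 1 probe set of their own, 20 probe sets in all out of 54675 on the array. All 7 passed the filter on low values and were among the 13607 genes tested. HSPA8 had 4 probe sets, each listed also for the small nucleolar RNA genes SNORD14C and SNORD14D, so their values are given by probe set and not by gene. AHSA1 is not analysed here.

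Total RNA was measured on 18 one-colour Affymetrix arrays, 3 in each of 6 groups. LNCaP-abl, an androgen-independent subline of LNCaP, received siRNA against TRIM24 (siTRIM24) or a control siRNA (sicontrol), each with ethanol vehicle. LNCaP, a human prostate cancer line that responds to androgen, received siTRIM24 with 10 nM dihydrotestosterone (DHT, the active androgen), sicontrol with DHT, siTRIM24 with vehicle, or sicontrol with vehicle. Transfection lasted 48 h and treatment 24 h in every group, and the growth protocol places LNCaP in charcoal-treated serum, which lacks steroid hormones, for the 48 h before hormone; it describes no separate medium for LNCaP-abl. TRIM24 is a bromodomain protein and cofactor of nuclear receptors. Nothing in the labels ties the 3 arrays of a group to separate cultures, and the p-values then cover only array-to-array spread, possibly technical. Comparisons that use the same group share its arrays.

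Steroid receptors without hormone are held by chaperones in a state that can bind ligand. HSP70 and its partner HSP40 first take up the receptor, the adaptor STIP1 (HOP) passes it to an HSP90 dimer, with ST13 (HIP) stabilising the HSP70 complex, and PTGES3 (p23) then locks HSP90 in its closed form. The immunophilins FKBP4 (FKBP52) and FKBP5 (FKBP51) bind the same end of HSP90: FKBP4 aids receptor activity, and FKBP5, itself a classical androgen-induced gene in prostate cells, lowers glucocorticoid receptor sensitivity. HSP90AA1 is the stress-inducible and HSP90AB1 the constitutive cytosolic HSP90, and both are targets of heat shock factors.

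The promoter windows of FKBP5, the member with the largest hormone response, are shown so that they can be read beside those values. For each HSP90 gene, which differed between the cell lines with sicontrol, only the window holding heat shock elements is shown. The windows are the 250 bases before a transcription start, from RefSeq on GRCh38.p14, in lower case with motif matches in capitals. FKBP5 start 1 is chr6:35728584-35728833 and start 2 is chr6:35688916-35689165 (both minus strand), HSP90AA1 start 2 is chr14:102087045-102087294 (minus strand), and HSP90AB1 start 3 is chr6:44247693-44247942 (plus strand).
FKBP5 start 1: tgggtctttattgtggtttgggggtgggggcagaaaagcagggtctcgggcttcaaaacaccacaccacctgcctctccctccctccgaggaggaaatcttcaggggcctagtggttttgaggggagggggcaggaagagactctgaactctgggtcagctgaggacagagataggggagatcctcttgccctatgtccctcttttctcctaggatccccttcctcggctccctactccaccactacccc
FKBP5 start 2: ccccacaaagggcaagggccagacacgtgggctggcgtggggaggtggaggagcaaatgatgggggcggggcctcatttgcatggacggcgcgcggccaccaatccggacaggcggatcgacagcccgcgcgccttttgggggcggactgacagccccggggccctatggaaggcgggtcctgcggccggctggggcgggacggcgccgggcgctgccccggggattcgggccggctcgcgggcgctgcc
HSP90AA1 start 2: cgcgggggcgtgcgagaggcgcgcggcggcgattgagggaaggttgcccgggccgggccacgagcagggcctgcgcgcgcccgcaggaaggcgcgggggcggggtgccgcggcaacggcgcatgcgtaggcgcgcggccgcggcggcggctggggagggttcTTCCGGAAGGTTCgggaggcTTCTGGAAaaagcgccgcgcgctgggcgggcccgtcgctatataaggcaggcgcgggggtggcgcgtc
HSP90AB1 start 3: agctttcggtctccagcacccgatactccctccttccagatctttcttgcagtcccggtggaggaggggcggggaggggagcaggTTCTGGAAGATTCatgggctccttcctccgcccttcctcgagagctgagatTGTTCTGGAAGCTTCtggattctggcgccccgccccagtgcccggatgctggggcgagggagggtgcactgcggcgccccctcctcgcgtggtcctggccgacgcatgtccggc
Windows were found for 7 of the 9 members, 13 windows in all, and none was given for FKBP4 and ST13. Searched on both strands were a 2-unit heat shock element (GAANNTTC or TTCNNGAA), a heat shock element of 3 units, the short androgen response motif TGTTCT, and the full androgen response element with up to 2 letters changed. The 3-unit element began 88 bases before HSP90AA1 start 2, and 165 and 112 bases before HSP90AB1 start 3, where the second overlaps a TGTTCT at 114. HSPA8 start 1, not printed, held it at 230 and 55, so it is not particular to the HSP90 windows, and AHSA1 start 2 held a TGTTCT at 225. HSP90AA1 start 1 and HSP90AB1 starts 1 and 2, also not printed, held none of the 4 motifs. Of 35116 windows of the same length, 0.441% held the 3-unit element, 11.6% the 2-unit element, 12.4% TGTTCT and 1.18% the full androgen element. Neither FKBP5 window held any of the 4 motifs, which says only that these letters are not in these windows.

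Values are log2 expression after RMA, which combines the probes of a probe set into 1 value. A gene was read from its brightest probe set and called higher or lower at an adjusted p under 0.05 (limma across all 13607 genes, Benjamini-Hochberg, two-sided). Array medians lay between 5.83 and 5.93, and arrays of 1 group correlated at 0.996 to 0.998. TRIM24 was lower on each siTRIM24 array than on each sicontrol array, by a log2 change of -2.08 in LNCaP-abl, -2.14 in LNCaP with DHT and -1.99 in LNCaP with vehicle. Of 7 luminal markers measured, all were at or above 5.88, the median of the table, in the DHT groups, 6 in the LNCaP vehicle groups (KLK2 below) and 5 in both LNCaP-abl groups (KLK2 and KLK3, prostate-specific antigen, below). The basal keratins KRT5 and KRT14 were below it in all 6 groups. By group, 2 of 3 neuroendocrine, 2 or 3 of 6 leukocyte and endothelial, and 1 to 3 of 5 fibroblast markers reached it. Reaching this level therefore does not by itself mark a cell type. In a bulk sample, fewer cells of a type and less RNA per cell cannot be told apart.

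FKBP5 (chr6:35573590-35728583) was the member that varied most over the groups, and it was highest in the DHT groups. Its arrays read 12.996, 13.02 and 12.98 in LNCaP with siTRIM24 and DHT, and 9.23, 9.23 and 9.30 with siTRIM24 and vehicle. With sicontrol they read 13.20, 13.19 and 13.17 with DHT, against 9.71, 9.72 and 9.74 with vehicle. Each DHT array was above each vehicle array. FKBP5 rose with DHT by 3.75 ± 0.04 in siTRIM24 cells, 13.4-fold, and by 3.46 ± 0.04 in sicontrol cells, 10.99-fold (log2 change ± SE, n = 3 arrays per group; adjusted p = 6.3e-18 and 1e-17, limma). The other FKBP5 probe sets gave 4.06 and 3.96 (224856_at) and 3.16 and 3.22 (204560_at), in siTRIM24 and sicontrol cells in that order.

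With TRIM24 knockdown FKBP5 fell in all 3 settings, most in LNCaP-abl. In LNCaP-abl the arrays read 8.81, 8.87 and 8.68 with siTRIM24, against 9.65, 9.73 and 9.71 with sicontrol. The arrays do not overlap in any of the 3 settings. The log2 change was -0.91 ± 0.04 in LNCaP-abl, -0.18 ± 0.04 in LNCaP with DHT and -0.47 ± 0.04 in LNCaP with vehicle (SE, n = 3 per group; adjusted p = 1e-10, 0.0024 and 2.4e-07, limma). As a ratio of siTRIM24 to sicontrol signal these are 0.533, 0.880 and 0.721. The fall in LNCaP-abl exceeded that in LNCaP with vehicle by a log2 difference of -0.44 ± 0.06 (adjusted p = 8.5e-05), and the fall with DHT was smaller than that with vehicle by 0.29 ± 0.06 (adjusted p = 0.0061). The probe sets disagree on both differences. Probe set 224856_at fell by 0.78, 0.34 and 0.44 in the 3 settings, with a difference between DHT and vehicle of 0.10 ± 0.11 (adjusted p = 0.64), and the mean of the 3 probe sets gave 0.11 (adjusted p = 0.48). For the difference between the lines, 224856_at gave -0.35 (adjusted p = 0.028), 204560_at 0.18, the other sign (adjusted p = 0.46), and the mean of probe sets -0.20 (adjusted p = 0.11). Probe set 204560_at, which is part of both means, read between 5.04 and 5.61 in the groups without DHT, below 5.88, where RMA compresses differences. Its knockdown changes there, -0.09 in LNCaP-abl and -0.27 with vehicle, were not called. With DHT its means were 8.38 with siTRIM24 and 8.71 with sicontrol, a called change of -0.33 (adjusted p = 0.040, limma). Whether the high level of the brightest probe set with DHT was compressed was not tested.

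**Figure D1:**
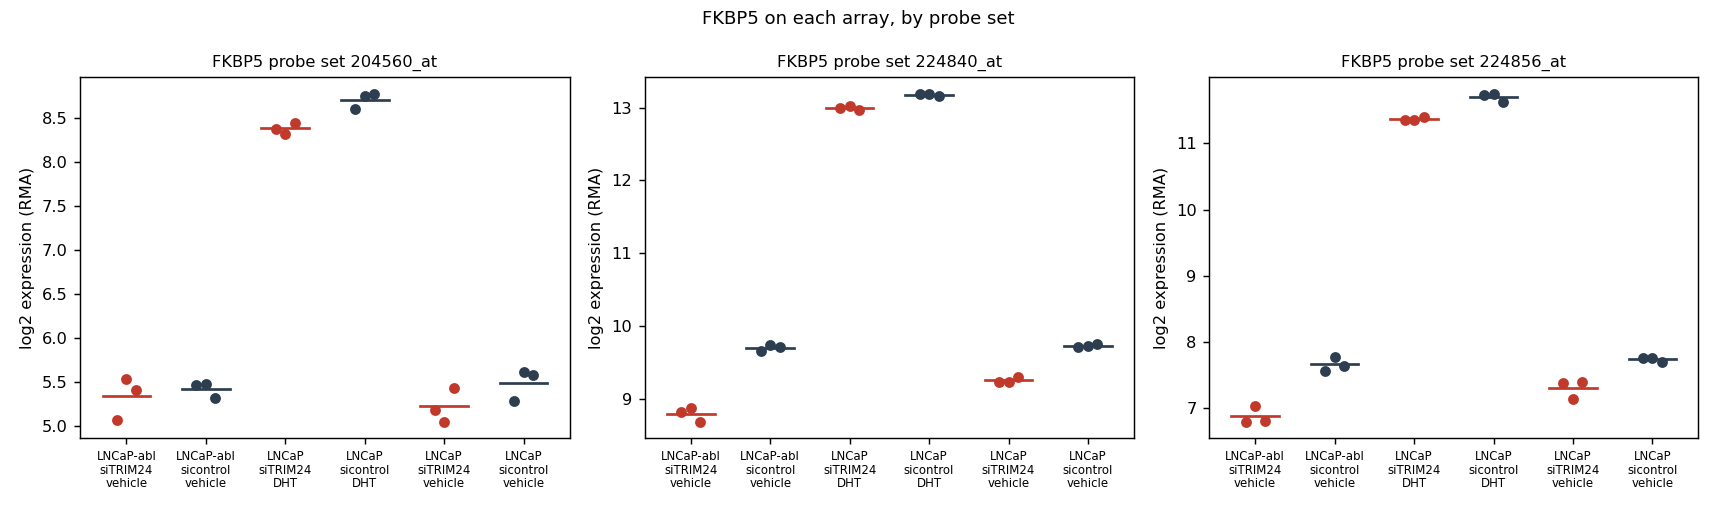
FKBP5 log2 expression on each of the 18 arrays by its 3 probe sets (points, arrays; lines, group means; red, siTRIM24; dark blue, sicontrol; the vertical axes differ in range). In LNCaP the DHT groups stand 3.16 to 4.06 above the vehicle groups with the same siRNA. The siTRIM24 arrays lie below sicontrol arrays in each setting for 224840_at and 224856_at.

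The order of FKBP5 means was sicontrol with DHT (13.18), siTRIM24 with DHT (12.998), LNCaP sicontrol with vehicle (9.72), LNCaP-abl sicontrol (9.70), LNCaP siTRIM24 with vehicle (9.25) and LNCaP-abl siTRIM24 (8.79). Only the arrays of LNCaP-abl sicontrol and LNCaP sicontrol with vehicle overlapped. LNCaP-abl against LNCaP accordingly gave -0.46 ± 0.04 with siTRIM24 in both lines (adjusted p = 6.5e-08) and -0.03 ± 0.04 with sicontrol (adjusted p = 0.61, limma; 95% interval -0.12 to 0.06). By the brightest probe set of each gene, FKBP5 group means spanned 4.39, against 0.48 for FKBP4 and 0.15 to 0.27 for the other 5 members. Some other probe sets spread more, as for ST13, whose means ran from 11.12 to 11.84 by 208667_s_at and from 9.96 to 10.66 by 208666_s_at. Over the 6 group means, the genes most like FKBP5 among 6906 candidates were ADPRM, C2orf76, PIAS1, PCTP and SMPD2, with Pearson r from 0.9969 to 0.9993; the 6 means fall into 2 with DHT and 4 with vehicle.

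FKBP4 (chr12:2794970-2805423), the immunophilin that aids receptor activity, also fell with TRIM24 knockdown in all 3 settings, by less than FKBP5. It read 9.91, 9.89 and 9.87 in LNCaP-abl with siTRIM24, against 10.20, 10.19 and 10.15 with sicontrol. In LNCaP with DHT it read 10.17, 10.14 and 10.19 with siTRIM24, against 10.26, 10.26 and 10.26 with sicontrol, and with vehicle 10.15, 10.17 and 10.15 with siTRIM24, against 10.39, 10.34 and 10.38 with sicontrol. In each setting the siTRIM24 arrays lay below the sicontrol arrays. The log2 change was -0.29 ± 0.03 in LNCaP-abl, -0.09 ± 0.03 with DHT and -0.21 ± 0.03 with vehicle (adjusted p = 5.3e-07, 0.012 and 1.6e-05, limma). The call with DHT was lost without siTRIM24 DHT replicate 2 (-0.08, adjusted p = 0.057) and with the mean of its probe sets (-0.01, adjusted p = 0.845). Probe set 200894_s_at gave -0.34, -0.10 and -0.23, with no call for DHT (adjusted p = 0.15). The other 2 FKBP4 probe sets read at most 4.38 and did not pass the filter, but the mean of probe sets includes them. Under DHT they averaged 4.29 and 4.06 with siTRIM24, against 4.15 and 4.05 with sicontrol. With DHT, FKBP4 fell in sicontrol cells by 0.11 ± 0.03 (adjusted p = 0.0047; 0.108 with the mean of its probe sets and 0.0613 with arrays centred on their medians), and the change in siTRIM24 cells was 0.01 ± 0.03 (adjusted p = 0.85). FKBP4 was lower in LNCaP-abl than in LNCaP, at -0.27 ± 0.03 with siTRIM24 and -0.19 ± 0.03 with sicontrol (adjusted p = 2.9e-07 and 1.5e-05).

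The log2 difference between the 3′ and 5′ GAPDH control probe sets, a sign of RNA quality, moved with the siRNA: 0.64 with siTRIM24 and 0.56 with sicontrol in LNCaP-abl, 0.63 with siTRIM24 and 0.56 with sicontrol in LNCaP with DHT, and 0.59 with siTRIM24 and 0.52 with sicontrol in LNCaP with vehicle. With that signal as a covariate, FKBP5 kept its fall in LNCaP-abl (-0.90, adjusted p = 1.18e-06) and with vehicle (-0.46, adjusted p = 0.000177) and lost its call with DHT (-0.18, adjusted p = 0.102). FKBP4 did likewise, at -0.27 in LNCaP-abl (adjusted p = 0.0013), -0.20 with vehicle (adjusted p = 0.00501) and -0.08 with DHT (adjusted p = 0.276). Without the covariate the changes with DHT were -0.18 for FKBP5 and -0.09 for FKBP4. The SD of the signal within groups was 0.013 to 0.032, so it largely follows the siRNA, and this fit cannot well separate them. The same ACTB difference, not used as a covariate, was 2.19 with siTRIM24 and 1.85 with sicontrol under DHT.

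Both cytosolic HSP90 genes were higher in LNCaP-abl than in LNCaP with sicontrol. HSP90AA1 (chr14:102080742-102139749) read 13.85, 13.94 and 13.87 in LNCaP-abl with sicontrol, against 13.62, 13.64 and 13.64 in LNCaP with sicontrol and vehicle. Each LNCaP-abl array was above each LNCaP array. It was higher in LNCaP-abl by 0.25 ± 0.03 with sicontrol (adjusted p = 1.2e-06), and its 4 probe sets, all called, gave 0.24 to 0.37. With siTRIM24 in both lines the difference was 0.09 ± 0.03 (adjusted p = 0.013), a call lost without LNCaP-abl siTRIM24 replicate 2 (0.07, adjusted p = 0.060) and with arrays centred on their medians (0.04, adjusted p = 0.34). HSP90AB1 (chr6:44246194-44253883) read 12.88, 12.94 and 12.85 in LNCaP-abl with sicontrol, against 12.77, 12.78 and 12.81 in LNCaP. It was higher in LNCaP-abl by 0.10 ± 0.04 (adjusted p = 0.022), and all 3 probe sets were called, at 0.10 to 0.23. This call of the brightest probe set was lost without LNCaP sicontrol vehicle replicate 1 or 2, or without LNCaP-abl sicontrol replicate 2 (0.08 to 0.10, adjusted p up to 0.10). With siTRIM24 in both lines HSP90AB1 was not called, at 0.07 ± 0.04 (adjusted p = 0.095, limma).

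HSP90AA1 also rose with knockdown in LNCaP with vehicle. The siTRIM24 arrays read 13.75, 13.76 and 13.73, against 13.62, 13.64 and 13.64 with sicontrol, a log2 change of 0.11 ± 0.03 (adjusted p = 0.0068, limma). The changes in LNCaP-abl (-0.05 ± 0.03, adjusted p = 0.17) and with DHT (0.04 ± 0.03, adjusted p = 0.31) were not called. The difference between the lines was called (-0.16 ± 0.04, adjusted p = 0.0088), with 3 of 4 probe sets called. With the GAPDH covariate the rise with vehicle was 0.09 and no longer called (adjusted p = 0.208). HSP90AB1 was not called with knockdown in any setting, at -0.03, -0.03 and 0.00 in LNCaP-abl, with DHT and with vehicle, with 95% intervals within -0.11 to 0.08. With DHT, HSP90AB1 fell by 0.15 ± 0.04 in siTRIM24 cells and 0.12 ± 0.04 in sicontrol cells (adjusted p = 0.0032 and 0.011), the second call lost without sicontrol DHT replicate 3 (-0.09, adjusted p = 0.066) and neither called by the most variable probe set (-0.08 in both, adjusted p = 0.0782 and 0.0842). HSP90AA1 under DHT changed by -0.09 ± 0.03 in siTRIM24 cells (adjusted p = 0.023) and -0.02 ± 0.03 in sicontrol cells (adjusted p = 0.66). The first call was lost on leaving out siTRIM24 vehicle replicate 1 or 2, or siTRIM24 DHT replicate 1 or 3 (adjusted p 0.0501 to 0.0711).

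**Figure D2:**
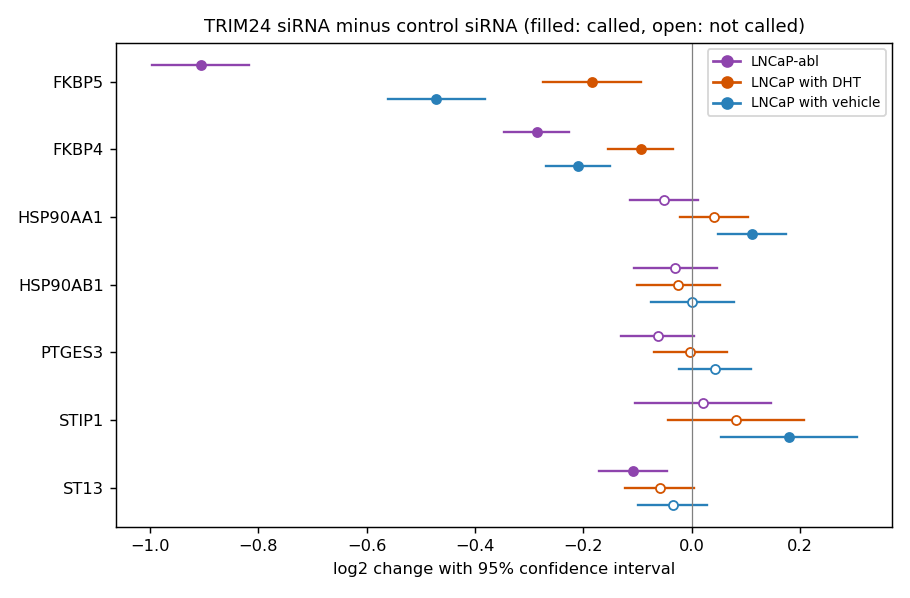
Log2 change, siTRIM24 minus sicontrol, of the 7 tested members in LNCaP-abl, LNCaP with DHT and LNCaP with vehicle (points; bars, 95% confidence intervals; filled, called; open, not called). By the brightest probe sets FKBP5 reaches -0.91 in LNCaP-abl, and the other 6 members lie between -0.29 and 0.18. Other ST13 probe sets fell further, as shown in the ST13 figure.

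The brightest probe sets of the co-chaperones PTGES3, STIP1 and ST13 had group means spanning at most 0.20. PTGES3 (chr12:56663349-56688284) read 12.86, 12.81 and 12.82 in LNCaP-abl with siTRIM24, against 12.99, 12.94 and 12.98 in LNCaP with siTRIM24 and vehicle, a difference of -0.14 ± 0.03 (adjusted p = 0.00073, limma). With sicontrol in both lines PTGES3 was not called, at -0.04 ± 0.03 (adjusted p = 0.30, limma). It rose with DHT in sicontrol cells by 0.10 ± 0.03 (adjusted p = 0.015), a call lost without sicontrol vehicle replicate 3 (0.09, adjusted p = 0.058) or sicontrol DHT replicate 3 (0.08, adjusted p = 0.075). STIP1 (chr11:64185272-64204543) rose with knockdown in LNCaP with vehicle, reading 9.47, 9.51 and 9.50 with siTRIM24, against 9.34, 9.27 and 9.33 with sicontrol. The change of 0.18 ± 0.06 (adjusted p = 0.024) was lost without siTRIM24 vehicle replicate 2 or 3 or sicontrol vehicle replicate 2 (adjusted p 0.0582 to 0.0817), and with the GAPDH covariate (0.21, adjusted p = 0.141). Its other probe set, 212009_s_at, gave 0.13 (adjusted p = 0.076), and it was lower in LNCaP-abl than in LNCaP with siTRIM24 (-0.27, adjusted p = 0.00037). Without LNCaP-abl siTRIM24 replicate 1, the highest STIP1 array of its group, STIP1 was called lower in LNCaP-abl than in LNCaP with siTRIM24 (-0.20, adjusted p = 0.0039, against -0.13 and 0.069 with it), and the difference of knockdown between the lines was called too (-0.23, adjusted p = 0.025, against -0.16 and 0.17).

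The probe sets of ST13 (chr22:40824535-40856639) gave different answers to knockdown. The brightest, 207040_s_at, changed by -0.11 ± 0.03 in LNCaP-abl (adjusted p = 0.0072; -0.14 and 0.0631 with the GAPDH covariate), -0.06 ± 0.03 with DHT (adjusted p = 0.13) and -0.04 ± 0.03 with vehicle (adjusted p = 0.39). Probe set 208666_s_at read 9.90, 9.99 and 9.99 in LNCaP-abl with siTRIM24, against 10.57, 10.65 and 10.61 with sicontrol. It fell by 0.65, 0.43 and 0.62 in LNCaP-abl, with DHT and with vehicle, and 208667_s_at fell by 0.57, 0.28 and 0.35, all 6 called when every probe set was tested (adjusted p at most 6.94e-05). For both, the siTRIM24 arrays lay below the sicontrol arrays in each setting. The dimmer pair also rose with DHT in siTRIM24 cells, by 0.26 and 0.14, where the brightest gave -0.00. All 3 are of a kind that can bind related transcripts, and which of them reads ST13 alone was not tested. Against LNCaP with sicontrol, ST13 in LNCaP-abl was higher by 0.11 ± 0.03 (adjusted p = 0.0032), 0.36 by 208667_s_at and 0.01 by 208666_s_at. With siTRIM24 in both lines the brightest probe set was not called, at 0.04 ± 0.03 (adjusted p = 0.23, limma).

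**Figure D3:**
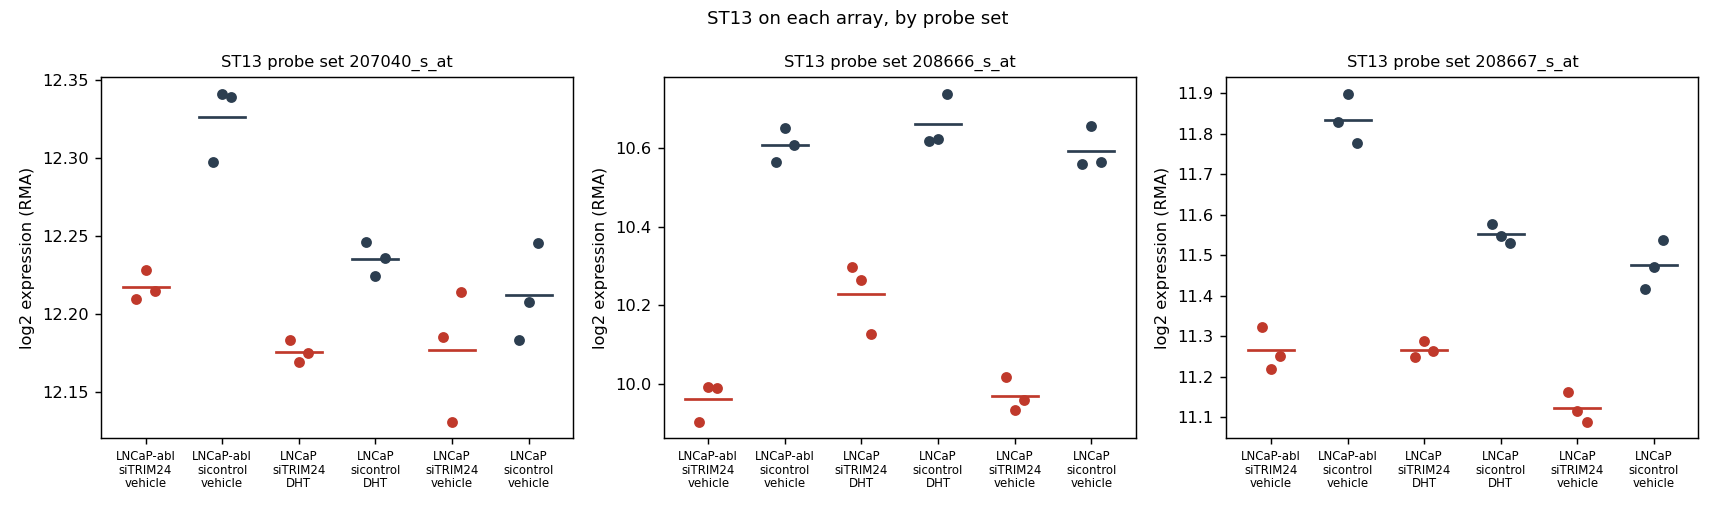
ST13 log2 expression on each array by its 3 probe sets (points, arrays; lines, group means; red, siTRIM24; dark blue, sicontrol; the vertical axes differ in range). By 208666_s_at and 208667_s_at the siTRIM24 arrays lie below the sicontrol arrays in each setting, by 0.28 to 0.65, against 0.04 to 0.11 by 207040_s_at.

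The 4 probe sets shared by HSPA8, the constitutive HSP70, and the 2 small nucleolar RNA genes changed by between -0.19 and 0.01 with knockdown, between -0.23 and 0.04 with DHT and between -0.04 and 0.06 between the lines. Probe set 208687_x_at fell in all 3 knockdown and both DHT comparisons, by 0.09 to 0.12. Probe set 210338_s_at fell with knockdown by 0.11 in LNCaP-abl, 0.14 with DHT and 0.19 with vehicle, and with DHT by 0.17 in siTRIM24 and 0.23 in sicontrol cells. Probe set 221891_x_at was called in none of these comparisons.

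Calls were common over the whole array, and the members' counts are read against that. With knockdown, 3 of 7 members were called in LNCaP-abl, all lower, where 45.6% of all genes were called (16.7% higher, 28.8% lower). With DHT 2 of 7 were called, both lower, where the share of all genes was 40.2% (19.4% higher, 20.8% lower). With vehicle 2 were higher and 2 lower, against 38.5% of all genes (20.5% higher, 18% lower). DHT gave 1 higher and 2 lower in siTRIM24 cells (43.5% of all genes called, 16.9% higher and 26.6% lower) and 2 higher and 2 lower in sicontrol cells (45.7%, 19.4% higher and 26.4% lower). LNCaP-abl against LNCaP gave 1 higher and 3 lower with siTRIM24 (69.8% of all genes, 29.6% higher and 40.2% lower) and 3 higher and 1 lower with sicontrol (63.8%, 29.1% higher and 34.6% lower). The knockdown change differed between LNCaP-abl and LNCaP for 2 members, FKBP5 and HSP90AA1, both more negative in LNCaP-abl (28.5% of all genes, 8.60% higher and 19.9% lower), and between DHT and vehicle for FKBP5, higher with DHT (11.1%, 5.38% higher and 5.70% lower). With knockdown the median absolute log2 change of the members was 0.06 in LNCaP-abl, 0.06 with DHT and 0.11 with vehicle. Over all genes it was 0.14, 0.12 and 0.11. For DHT the members had 0.06 in siTRIM24 and 0.10 in sicontrol cells, against 0.12 and 0.14 over all genes. Between the lines they had 0.13 with siTRIM24 and 0.10 with sicontrol, against 0.26 and 0.22. For the differences of knockdown between the lines and between DHT and vehicle they had 0.11 and 0.07, against 0.14 and 0.10. Scaling moved the split of all calls: for knockdown in LNCaP-abl 36.7% of called genes were higher, 26.2% with arrays centred on their medians and 49.1% after quantile normalization, and for its difference between the lines 30.1%, 18.2% and 47.4%.

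**Figure D4:**
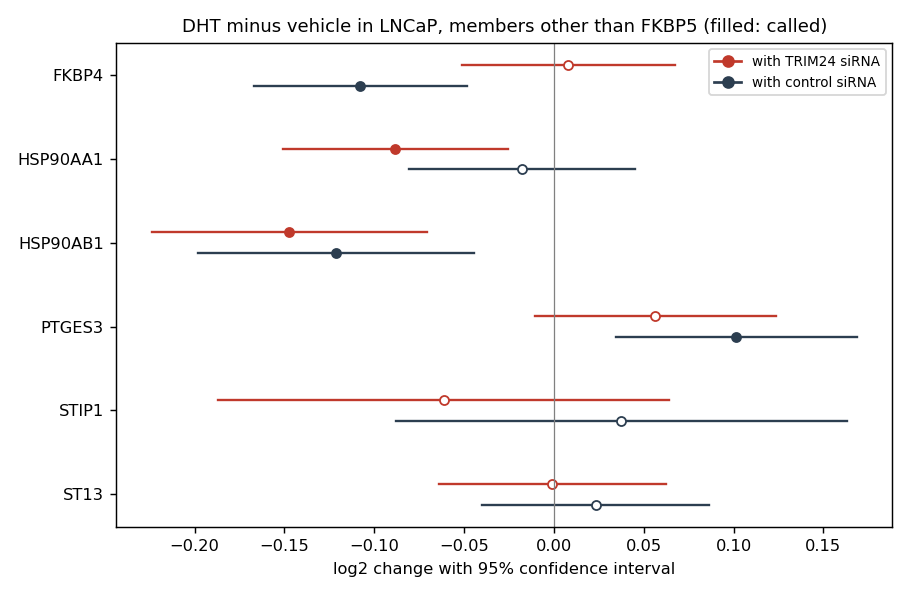
Log2 change, DHT minus vehicle in LNCaP, of the 6 members other than FKBP5, in siTRIM24 and sicontrol cells (points; bars, 95% confidence intervals; filled, called; open, not called). All lie between -0.15 and 0.10 by the brightest probe sets. FKBP5, off this scale, rose by 3.75 and 3.46.

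**Figure D5:**
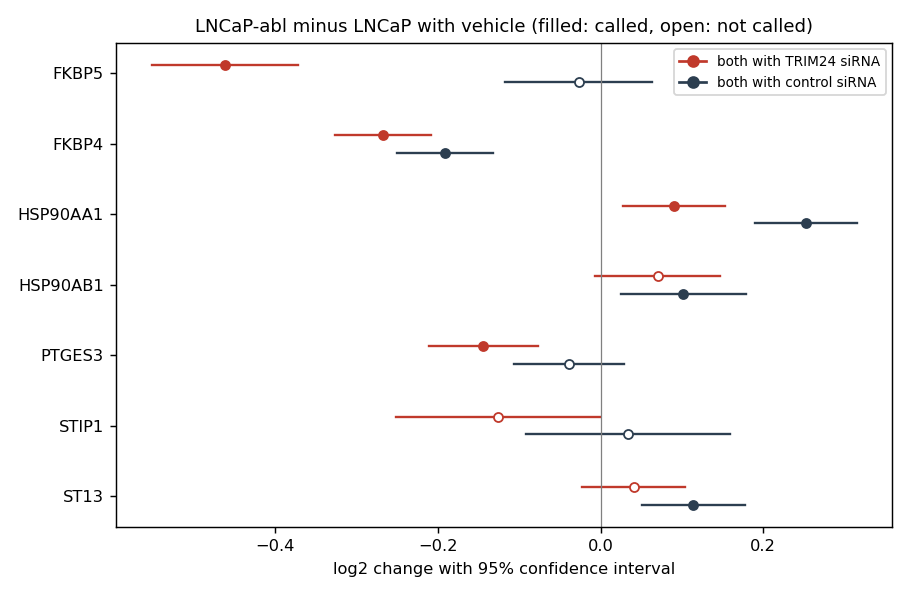
Log2 difference, LNCaP-abl minus LNCaP with vehicle, of the 7 members with siTRIM24 or with sicontrol in both lines (points; bars, 95% confidence intervals; filled, called; open, not called). HSP90AA1 is higher in LNCaP-abl by 0.09 and 0.25, and FKBP5 stands at -0.46 with siTRIM24 and -0.03 with sicontrol.

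The rest of the pathway was read from 6 lists, of which 65 of 71 genes were tested. The others are not analysed here. Among 13 other HSP90 co-chaperones, 8 were called with knockdown in LNCaP-abl, each lower, where 45.6% of all genes were called and 28.8% were lower, with a median log2 change of -0.13 against -0.01 over all genes. That count was 3 with the GAPDH covariate, 4 with only the groups compared and 5 without LNCaP-abl siTRIM24 replicate 3. The shares of all genes called there were 24.3%, 39.2% and 40.2%. With knockdown in LNCaP, 3 were lower and 1 higher under DHT, and 2 were called under vehicle, both higher (40.2% and 38.5% of all genes called); over the alternatives the counts called ranged from 1 to 7 and from 2 to 6. CHORDC1, an HSP90-binding zinc protein, fell by 0.27 ± 0.08 in LNCaP-abl and 0.28 ± 0.08 in LNCaP under DHT, calls that the GAPDH covariate ended (-0.15, adjusted p = 0.45, and -0.17, adjusted p = 0.388); under DHT the mean of its probe sets gave -0.00 (adjusted p = 0.983). CDC37, which brings kinases to HSP90, rose by 0.19 ± 0.03 with vehicle. Between the lines with sicontrol 7 were lower and 2 higher in LNCaP-abl, near the 63.8% of all genes called there, with TOMM34, a cytosolic co-chaperone, at -0.85 ± 0.04. DHT in sicontrol cells gave 4 lower and 3 higher, where 45.7% of all genes were called. Only 3 were called without sicontrol vehicle replicate 3 (41.2% of all genes), and 4 without sicontrol DHT replicate 2 or 3 (44.1% and 40.7%). FKBP8, an immunophilin of the mitochondrial surface, stood at -0.28 ± 0.08 (-0.07 and adjusted p = 0.213 by the mean of its probe sets, limma). That FKBP8 call was lost without sicontrol vehicle replicate 3 (-0.20, adjusted p = 0.068) or sicontrol DHT replicate 2 (-0.23, adjusted p = 0.053).

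Among 16 HSP70, HSP40 and nucleotide exchange genes, 9 fell and 2 rose with knockdown in LNCaP-abl, under DHT 6 fell and 1 rose, and under vehicle 5 fell and 4 rose; the list median in LNCaP-abl was -0.13. Of all genes 45.6%, 40.2% and 38.5% were called in these comparisons. With the GAPDH covariate the number called was 4 in LNCaP-abl, 2 under DHT and 4 under vehicle, and after quantile normalization it was 7 in LNCaP-abl. The shares of all genes called were 24.3%, 23% and 25.2% with the covariate, and 45.2% after quantile normalization. HSPA4L, an HSP110-type exchange factor, fell by 0.42 ± 0.08 with knockdown in LNCaP-abl and 0.50 ± 0.08 with knockdown under DHT, but its most variable probe set gave 0.26 and 0.17, the other way. DNAJB4, an HSP40, rose by 0.56 ± 0.08 with knockdown under vehicle. Against vehicle, HSPA4L fell with DHT in sicontrol cells by 1.07 ± 0.08, among 4 lower and 5 higher (45.7% of all genes called). HSPA2 was higher in LNCaP-abl, among 5 higher and 8 lower (63.8% of all genes called), at 8.08 in LNCaP-abl with sicontrol against 5.23 in LNCaP, the second below 5.88, so the fitted difference of 2.85 ± 0.09 is no exact size.

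Of 10 heat shock factor, small HSP and chaperonin genes, 5 fell and 2 rose with knockdown in LNCaP-abl, under DHT 1 fell and 2 rose, and under vehicle 2 fell, where 45.6%, 40.2% and 38.5% of all genes were called. The 3 called under DHT were 1 with the GAPDH covariate and 5 with the most variable probe set or with an intensity trend and robust variances. The shares of all genes called were then 23%, 41.3% and 41.2%. SERPINH1, a collagen chaperone, rose by 0.27 ± 0.08 in LNCaP-abl (lost without LNCaP-abl siTRIM24 replicate 1, 0.23 and adjusted p = 0.062, or sicontrol replicate 1, 0.24 and adjusted p = 0.053). The small HSP gene HSPB1 rose by 0.41 ± 0.05 with knockdown under DHT, and CRYAB fell by 0.22 ± 0.06 under vehicle. SERPINH1 was higher in LNCaP-abl than in LNCaP by 2.98 ± 0.08, among 3 higher and 5 lower with sicontrol (63.8% of all genes called). HSPB8 fell with DHT against vehicle in sicontrol cells by 0.56 ± 0.07, among 1 higher and 5 lower (45.7% of all genes called). All 5 organelle HSP90 and HSP70 genes were tested. With knockdown 2 were higher and 1 lower in LNCaP-abl, 1 was higher under DHT, and 2 were higher and 1 lower under vehicle. Of all genes 45.6%, 40.2% and 38.5% were called there. Over the alternatives the number called ranged from 2 to 3, 0 to 1 and 0 to 3. HSPA5, the HSP70 of the endoplasmic reticulum, rose with knockdown in LNCaP-abl by 0.23 ± 0.04, and HSPA13 by 0.23 ± 0.04 under DHT and 0.17 ± 0.04 under vehicle; its most variable probe set gave 0.15 (adjusted p = 0.0858) and -0.14. Against vehicle, HSPA13 rose with DHT in sicontrol cells by 0.39 ± 0.04, among 3 higher and 1 lower (45.7% of all genes called). HSP90B1, the HSP90 of the endoplasmic reticulum, was higher in LNCaP-abl by 0.37 ± 0.04, among 2 higher and 1 lower with sicontrol (63.8% of all genes called).

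Of 16 other FKBP and cyclophilin genes, knockdown gave 5 higher and 3 lower in LNCaP-abl, 8 higher and 3 lower in LNCaP under DHT, and 7 higher and 4 lower under vehicle, where 45.6%, 40.2% and 38.5% of all genes were called. With the GAPDH covariate the number called was 3 in LNCaP-abl and 7 under vehicle, and with the most variable probe set 5 in LNCaP-abl and 7 under DHT. Of all genes 24.3% and 25.2% were called with the covariate, and 45.9% and 41.3% with the most variable probe set. FKBP14, a collagen-folding enzyme of the endoplasmic reticulum, rose by 0.92 ± 0.08 under DHT and 0.67 ± 0.08 under vehicle, while PPIF, the mitochondrial cyclophilin, fell by 0.40 ± 0.04 in LNCaP-abl. Against vehicle, FKBP1B rose with DHT in sicontrol cells by 1.28 ± 0.09, among 3 higher and 3 lower (45.7% of all genes called). Its means were 5.58 with DHT and 4.3 with vehicle, both below 5.88, so the fitted change is no exact size. FKBP1B passed the filter only through its siTRIM24 DHT arrays, at 6.15, 5.98 and 5.99. FKBP10, another collagen chaperone, was lower in LNCaP-abl, at -3.74 ± 0.18, among 1 higher and 6 lower (63.8% of all genes called). Its arrays read 5.32, 5.69 and 4.73 in LNCaP-abl with sicontrol, against 9.03, 8.95 and 8.99 in LNCaP, the LNCaP-abl values being below 5.88. Among 5 steroid receptors, NR3C1, the glucocorticoid receptor, read 12.20, 12.21 and 12.19 in LNCaP-abl with sicontrol, against 5.41, 5.61 and 5.21 in LNCaP. The fitted difference was 6.79 ± 0.09 with the LNCaP side below 5.88, among 3 higher and 1 lower (63.8% of all genes called). With knockdown PGR, the progesterone receptor, rose by 0.62 ± 0.10 in LNCaP-abl (0.07 and adjusted p = 0.432 by the mean of its probe sets, 0.41 and adjusted p = 0.0905 with the GAPDH covariate), NR3C2, the mineralocorticoid receptor, fell by 0.63 ± 0.08 under DHT, and NR3C1 rose by 0.50 ± 0.09 under vehicle, with means of 5.91 for siTRIM24 and 5.41 for sicontrol, near or below the filter (0.21 and adjusted p = 0.0967 by its most variable probe set). Against vehicle, NR3C2 rose with DHT in sicontrol cells by 0.66 ± 0.08, among 1 higher and 2 lower (45.7% of all genes called).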

How the data were processed

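The authors deposited log2 values for each probe set, which per the submitters' processing notes come from RMA; its version is not given in the sources used here. RMA brings arrays close to one distribution (array medians here were 5.83 to 5.93), which hides any change common to most transcripts and compresses dim values. Probe sets were named from the platform annotation, with symbols updated by gene ID for 41043 of the 41097 with 1 symbol; 1801 with several symbols named no gene. A gene was its brightest probe set and entered the test when 3 or more arrays reached 5.88, the table's median. A group-means model of the 18 arrays (limma 3.58.1, R 4.3.3; 12 residual degrees of freedom) was fitted over 13607 genes for 9 comparisons, and the fit was tested on simulated data. The number of arrays, 3 per group, limits the precision. The members and gene lists were chosen with earlier results of these data known. Named list genes are, per list and comparison, those with the largest change among up to 3 called genes whose arrays do not overlap. Of these the text on the lists gives the first, a narrowing made after their values were seen. It does so for the 3 knockdown comparisons, DHT in sicontrol cells and the lines with sicontrol. For DHT in siTRIM24 cells, the lines with siTRIM24 and both differences of knockdown it gives no list genes, though some were called. Promoters and positions are RefSeq's, on GRCh38.p14. Alternatives were the filter, the choice of probe set, array scaling, the samples fitted, variance modelling, a GAPDH 3′ to 5′ covariate, the replicate number as a block, and each array left out. The mean of a gene's probe sets took in those that did not pass the filter. Same-numbered arrays did not deviate together: no comparison had all 3 correlations over 0.1 (lowest -0.279, highest 0.164).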

Additional observations from a re-analysis of the deposited data

Results flagged for a closer look

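The effect of TRIM24 knockdown differed between settings for 2 members by the interaction term of the fit (limma, adjusted over all genes). For FKBP5 the log2 change in LNCaP-abl minus that in LNCaP with vehicle was -0.4354, and the change with DHT minus that with vehicle was 0.2876. The other probe sets gave -0.35 (224856_at, adjusted p = 0.028) and 0.18 (204560_at, adjusted p = 0.46) for the first, and neither was called for the second. For HSP90AA1 the log2 change in LNCaP-abl minus that in LNCaP with vehicle was -0.1631. Groups of 3 arrays were not tested for outlying samples.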

How the results depend on the processing

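Over the alternatives other than leaving out arrays, 581 member results kept direction and side of the threshold, 27 lost a call, 20 gained one and 2 reversed; over left-out arrays 445 kept both, 15 lost a call, 2 gained one and 0 reversed. The number of members called moved beyond 1.5 times as follows. For knockdown in LNCaP-abl (3 of 7) it was 5 with arrays centred on their medians and 5 with an intensity trend and robust variances (45.1% and 46.3% of all genes called). For knockdown with DHT (2) it was 1 with only the groups compared (37.1%) and 0 with the GAPDH covariate (23%), where limma gave 1 member at an unadjusted p under 0.05. For knockdown with vehicle (4) it was 2 with the GAPDH covariate (25.2%). For DHT in sicontrol cells (4) it was 2 with the most variable probe set (45.9%) and 1 with only the groups compared (39.9%). For the difference of knockdown between DHT and vehicle (1) it was 2 after quantile normalization (11.7%). It was 0 with the mean of all or the most variable probe set (10.2% and 8.96%), where limma gave 1 member each at an unadjusted p under 0.05. Leaving out each array gave 3 to 3 members for knockdown in LNCaP-abl, 1 to 2 with DHT (1 without siTRIM24 DHT replicate 2), 3 to 4 with vehicle, 2 to 3 and 2 to 4 for DHT in siTRIM24 and sicontrol cells (2 without sicontrol DHT replicate 3), 3 to 5 and 3 to 4 between the lines with siTRIM24 and sicontrol, and 2 to 3 and 1 to 1 for the differences of knockdown between lines and with DHT. ST13 with DHT in siTRIM24 cells counted as reversed, at 0.1344 with the mean of all probe sets and 0.259 with the most variable one. Its value by the brightest probe set was -0.0008 and not called, so these are calls gained with other probe sets. Of the list genes, HSPA4L reversed with knockdown with vehicle to 0.1565 (mean) and 0.6617 (most variable), and with the most variable probe set to 0.1698 with DHT and 0.2587 in LNCaP-abl. DNAJA4 reversed with vehicle to 0.02415 (mean) and 0.1326 (most variable), and its difference between lines to -0.1155. With the most variable probe set HSF1 with DHT gave -0.0229, HSPA13 with vehicle -0.1357, PPIH in LNCaP-abl 0.04908 and its difference between lines 0.3361, and NR3C1 with DHT -0.05322. These are other probe sets of the same genes; the cause was not tested. With the replicate number as a block FKBP5 in LNCaP-abl stayed at -0.9066, and the block changed no member's call; the numbers did not pair the arrays. Signal over background limits FKBP5 probe set 204560_at, FKBP1B, FKBP10, HSPA2 and NR3C1.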
